A study of Mus musculus with 3 samples.

Results

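Fibroblast growth factor (Fgf) signalling was described through 10 genes in the genital tubercle, the outgrowth of the embryo from which the penis or clitoris develops. The genes are the ligands Fgf8, Fgf9 and Fgf10, the receptors Fgfr1, Fgfr2 and Fgfr3, and the feedback inhibitors Spry1, Spry2, Spry4 and Dusp6. They were chosen by name, as every probe set annotated to exactly 1 gene symbol among these, which gave 20 of the 45037 probe sets analysed and 10 of 18193 genes. The series holds 1 array for each of 3 embryos at embryonic day 14 (Theiler stage 22), all labelled male and strain FVB/N. Their FVB/N mothers had been mated to males carrying a transgene named SMAA/EYFP, a yellow fluorescent reporter named for smooth muscle actin, and the reporter guided the dissection. No sample was pooled, no untreated or other control group enters the comparisons, and the label that differs is the limb landmark, with fingers visible in the forelimb of replicate 3 and footplate borders indented in replicates 1 and 2. The RNA was amplified in 2 rounds, and nothing in the labels says whether the embryos came from separate litters.

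In this pathway a secreted ligand binds a receptor tyrosine kinase together with heparan sulphate, and the receptor passes the signal through adaptors to the Ras and Erk kinases. Erk activity switches on genes that damp the pathway, so Sprouty genes and the Erk phosphatase gene Dusp6 are widely used as readouts of it. In the mouse tubercle Fgf8 is known from the distal urethral epithelium, while Fgf10 is made by mesenchyme next to the urethral plate and acts through an epithelial splice form of Fgfr2 that urethral closure requires.

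Signals are given as deposited, in arbitrary linear units. A probe set was called above background in a sample when it exceeded the 95th percentile of 81 probe sets for odorant, pheromone and bitter taste receptors, which was 197 in replicate 3 and 136 and 253 in replicates 1 and 2. Differences, folds and SDs of log2 signals were taken after the samples were aligned on the median of probe sets above background in all of them. With so few arrays, their number limits the precision. Aligning on all probe sets by their median instead multiplied every fold of replicate 3 over replicates 1 and 2 by 0.799 and 1.11, and every fold of replicate 1 over replicate 2 by 1.39. Of markers of the labelled tissue, 13 of 13 epithelial, 12 of 12 mesenchymal and 11 of 12 tubercle genes passed in 3 of 3 samples, beside 60.5% of all genes. Of liver markers, which the label does not call for, 4 of 6 passed, with the albumin gene Alb at 1400 in replicate 3 and 42766 and 9061 in replicates 1 and 2. Replicate 3 went against its male label: Xist, expressed from the inactive X chromosome of females, read 61883 there against 8.05 and 118 in replicates 1 and 2, and the Y-linked gene Eif2s3y read 37.9 against 4384 and 3738. It is called the library labelled male with visible fingers, or replicate 3, and detection counts of member and pathway genes are given with and without it.

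Of the 10 genes, 8 passed this threshold in 3 of 3 samples on their main probe set, the one with the highest mean signal, as did 60.5% of all genes. By role these were 1 of 3 ligands, 3 of 3 receptors and 4 of 4 feedback inhibitors, so the genes that did not pass in every sample, Fgf8 and Fgf10, were ligands. The contrast depended on the rule, since 1 of 3 ligands, 1 of 3 receptors and 2 of 4 feedback inhibitors passed when every probe set of a gene had to. That rule is harder to meet with more probe sets, and the share of all genes that met it was not counted. The receptors had 2 or 3 probe sets each, and Fgf8 and Fgf10 had 1. With the 90th percentile as background Fgf10 passed too, and with the 99th the inhibitor Spry2 did not. Of the 20 probe sets 13 passed in 3 of 3 samples, beside 53.6% of all those with 1 gene symbol. In 4 of the 6 genes with several probe sets some but not all passed, beside 48.3% of all genes with several. Without replicate 3, 14 of the 20 probe sets passed, the counts of genes by role did not change, and 62.2% of all genes then passed in replicates 1 and 2. Levels of different probe sets cannot be set against each other, so the roles are compared by detection, with no test. In whole tissue, fewer cells of a type and less RNA per cell cannot be told apart.

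**Figure D1:**
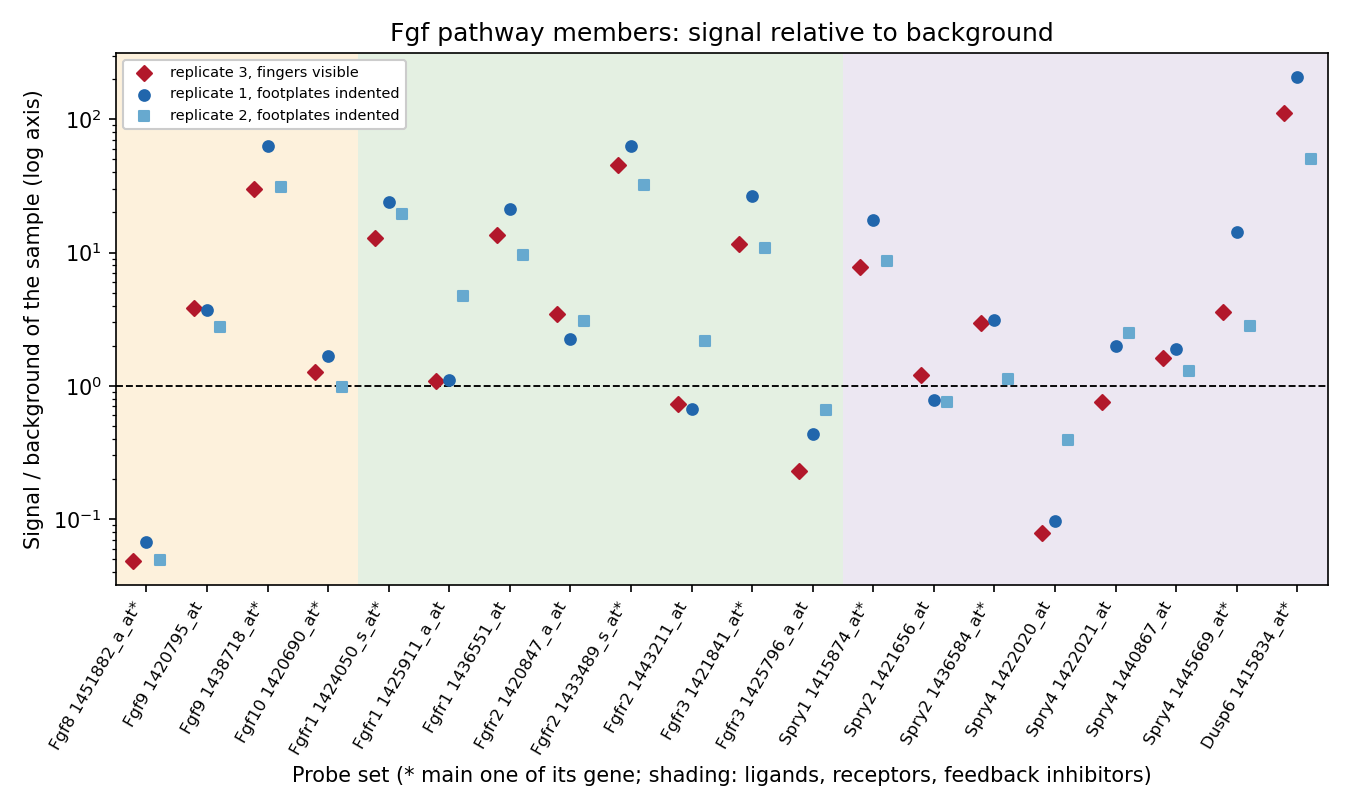
Signal of each of the 20 probe sets divided by the background of its own sample (log axis), with replicate 3 as diamonds, replicate 1 as circles and replicate 2 as squares, and the dashed line at background. The Fgf8 probe set lies far below the line in 3 of 3 samples and Fgf10 lies at it, while the main probe set (asterisk) of each receptor and feedback inhibitor lies above it in 3 of 3 samples; heights of different probe sets are not comparable.

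Promoter sequence from RefSeq (build GRCm38.p6) was used for 7 of the 10 genes, with no window for Fgf8, Fgfr1 or Spry4. Member windows on a single chromosome were left out, which need not account for each of these 3 genes. The 250 bases upstream of the annotated start are shown for a detected ligand, a ligand at background and a detected feedback inhibitor. Receptor windows are not shown. Capitals mark CGGAA on either strand (TTCCG as printed), a longer form of the GGAA core bound by ETS transcription factors, which Erk activates. GGAA or TTCC without the added base was not marked, and each window shown holds such stretches. The motif was chosen with the sequences in view, so its counts do not test the contrast of roles.
Fgf9, chr14:58072436-58072685, plus strand: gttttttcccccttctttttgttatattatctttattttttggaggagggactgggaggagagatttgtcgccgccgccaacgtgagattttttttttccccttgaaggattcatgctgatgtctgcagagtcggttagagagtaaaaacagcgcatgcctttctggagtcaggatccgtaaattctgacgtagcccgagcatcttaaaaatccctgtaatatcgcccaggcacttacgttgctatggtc
Fgf10, chr13:118714449-118714698, plus strand: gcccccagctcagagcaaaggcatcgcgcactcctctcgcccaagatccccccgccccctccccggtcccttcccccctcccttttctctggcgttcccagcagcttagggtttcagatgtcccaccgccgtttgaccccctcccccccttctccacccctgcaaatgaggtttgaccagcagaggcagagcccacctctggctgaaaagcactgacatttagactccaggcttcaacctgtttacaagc
Dusp6, chr10:99262981-99263230, plus strand: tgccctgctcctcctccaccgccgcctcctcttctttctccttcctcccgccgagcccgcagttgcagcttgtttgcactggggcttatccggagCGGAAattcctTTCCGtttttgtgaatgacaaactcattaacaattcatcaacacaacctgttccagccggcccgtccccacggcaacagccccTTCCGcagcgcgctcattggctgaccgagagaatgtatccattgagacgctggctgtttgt
The Dusp6 window held 3 matches to CGGAA and the Fgf9 and Fgf10 windows 0. Of the 8 windows of the 7 genes, 1 held a match, that of Dusp6. Those of the inhibitors Spry1 and Spry2 and of the receptors Fgfr2 and Fgfr3 held 0. The motif was present in 25.2% of 32851 mouse promoter windows of the same length, with no chromosome left out, and 3 or more copies in 2.12%. A match is a match of letters and does not show binding.

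Among the ligands, Fgf8 had 1 probe set, which read 9.64 in replicate 3 and 9.12 and 12.4 in replicates 1 and 2. These values were 0.0488, 0.0672 and 0.0492 times the background of each sample, so no fold is given. Fgf10, also with 1 probe set, read 250.4 in replicate 3 and 226 and 248 in replicates 1 and 2, or 1.27, 1.67 and 0.982 times background. It passed in replicates 3 and 1 and missed in replicate 2, although its deposited signals were close together. Their SD on the log2 scale was 0.081 as deposited and 0.076 after alignment (n = 3). It was 0.285 when aligned on all probe sets and 0.287 after quantile normalization. The call in replicate 2 therefore turned on that sample's higher background.

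Fgf9, a ligand known from epithelia that signals to mesenchyme, was above background in 3 of 3 samples on each of its 2 probe sets. The main one, 1438718_at, read 5920 in replicate 3 and 8614 and 7918 in replicates 1 and 2 (mean 7484 ± 1398, SD, n = 3). The other, 1420795_at, read 763 in replicate 3 and 507 and 703 in replicates 1 and 2. The probe sets ordered the samples in opposite ways, with replicate 3 lowest on 1438718_at and highest on 1420795_at. Their largest folds between samples were 1.55 (replicate 1 over 3) and 1.42 (replicate 3 over 1).

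The receptors are the tyrosine kinases through which these ligands act, with Fgfr1 best known from mesenchyme and Fgfr2 in an epithelial and a mesenchymal splice form. The main Fgfr2 probe set, 1433489_s_at, read 8983 in replicate 3 and 8531 and 8161 in replicates 1 and 2 (mean 8558 ± 412, SD, n = 3). The samples differed by at most 1.22-fold after alignment, with an SD of 0.16 on the log2 scale, against a median of 0.364 over the 21612 probe sets above background in 3 of 3 samples. This SD depended on the scaling, at 0.385 when aligned on all probe sets, against a median of 0.481 over all, and at 0.0641 after quantile normalization. The main Fgfr3 probe set, 1421841_at, read 2293 in replicate 3 and 3639 and 2750 in replicates 1 and 2 (SD 0.40 on the log2 scale, and 0.0868 without replicate 1), so replicate 1 was highest. The main Fgfr1 probe set, 1424050_s_at, read 2520 in replicate 3 and 3235 and 4911 in replicates 1 and 2, with replicate 2 the highest, except after alignment on all probe sets, where replicate 1 was, and an SD of 0.41 on the log2 scale (0.265 without replicate 3). The suffix s marks probes that can match transcripts of more than 1 gene, which applies to the main probe sets of Fgfr1 and Fgfr2.

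Further probe sets of the receptors gave other pictures. Fgfr1 was above background in 3 of 3 samples on each of 3 probe sets. On 1436551_at the samples were close, at 2658 in replicate 3 and 2858 and 2434 in replicates 1 and 2. On 1425911_a_at, whose suffix marks probes shared by several transcripts of 1 gene, replicate 3 read 214 and replicate 1 read 151, each barely above background, while replicate 2 read 1199. Replicate 2 was thus 5.09-fold over replicate 3 and 6.79-fold over replicate 1 on this probe set, whose SD of 1.49 on the log2 scale was higher than that of 99.1% of the probe sets above background in 3 of 3 samples.

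The Fgfr2 probe set 1443211_at showed the same sample apart, with 145 in replicate 3 and 91.0 in replicate 1, neither above background, and 546 in replicate 2. After alignment replicate 2 was thus at least 2.51-fold over the background of replicate 3. Set against the background of replicate 1 it was at least 3.43-fold higher. On the third Fgfr2 probe set, 1420847_a_at, replicates 3 and 2 read 681 and 779 against 307 in replicate 1. The further Fgfr3 probe set, 1425796_a_at, was above background in no sample (45.0 in replicate 3 and 59.3 and 167 in replicates 1 and 2). The further probe sets were not uniform, since those of Fgfr1 included 1 that stayed within 1.37-fold across the samples.

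The Sprouty proteins are intracellular inhibitors of receptor tyrosine kinase signalling upstream of Erk. Spry1, with 1 probe set, read 1533 in replicate 3 and 2372 and 2174 in replicates 1 and 2 (mean 2026 ± 439, SD, n = 3), a largest fold of 1.64 between replicates 1 and 3. The main Spry2 probe set, 1436584_at, read 589 in replicate 3 and 424 and 285 in replicates 1 and 2, and in replicate 2 it was 1.13 times background. Replicate 3 was 2.28-fold over replicate 2. The other Spry2 probe set, 1421656_at, was above background in replicate 3 alone (240, against 106 and 193), so replicate 3 was the highest sample on both. On 1421656_at it was only 1.21 times background, and at least 1.66-fold over replicate 1 and 1.04-fold over replicate 2.

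Spry4 had 4 probe sets and the most uneven record of the inhibitors. The main one, 1445669_at, read 709 in replicate 3 and 1941 and 710.0 in replicates 1 and 2, so replicate 1 was 2.91-fold over replicate 3 and 3.20-fold over replicate 2, which read alike. On 1422021_at the high sample was another, with 149, not above background, in replicate 3, 269 in replicate 1 and 635 in replicate 2. On 1440867_at the samples read 320 in replicate 3 and 255 and 326 in replicates 1 and 2, a range of 1.18-fold after alignment. The fourth, 1422020_at, was above background in no sample. No order of the samples for Spry4 holds across its probe sets.

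Dusp6 encodes the cytoplasmic phosphatase that removes the activating phosphates of Erk. Its probe set read 21842 in replicate 3 and 28126 and 12845 in replicates 1 and 2 (mean 20938 ± 7681, SD, n = 3), or 111, 207 and 50.8 times background. Replicate 1 was 2.56-fold over replicate 2, and replicate 3 lay between them, 1.87-fold over replicate 2. The SD of 0.69 on the log2 scale was higher than that of 84.5% of probe sets above background in 3 of 3 samples. Without replicate 2 it was 0.32. The level of this inhibitor thus stood far above background in each embryo and differed between embryos by more than 2-fold.

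**Figure D2:**
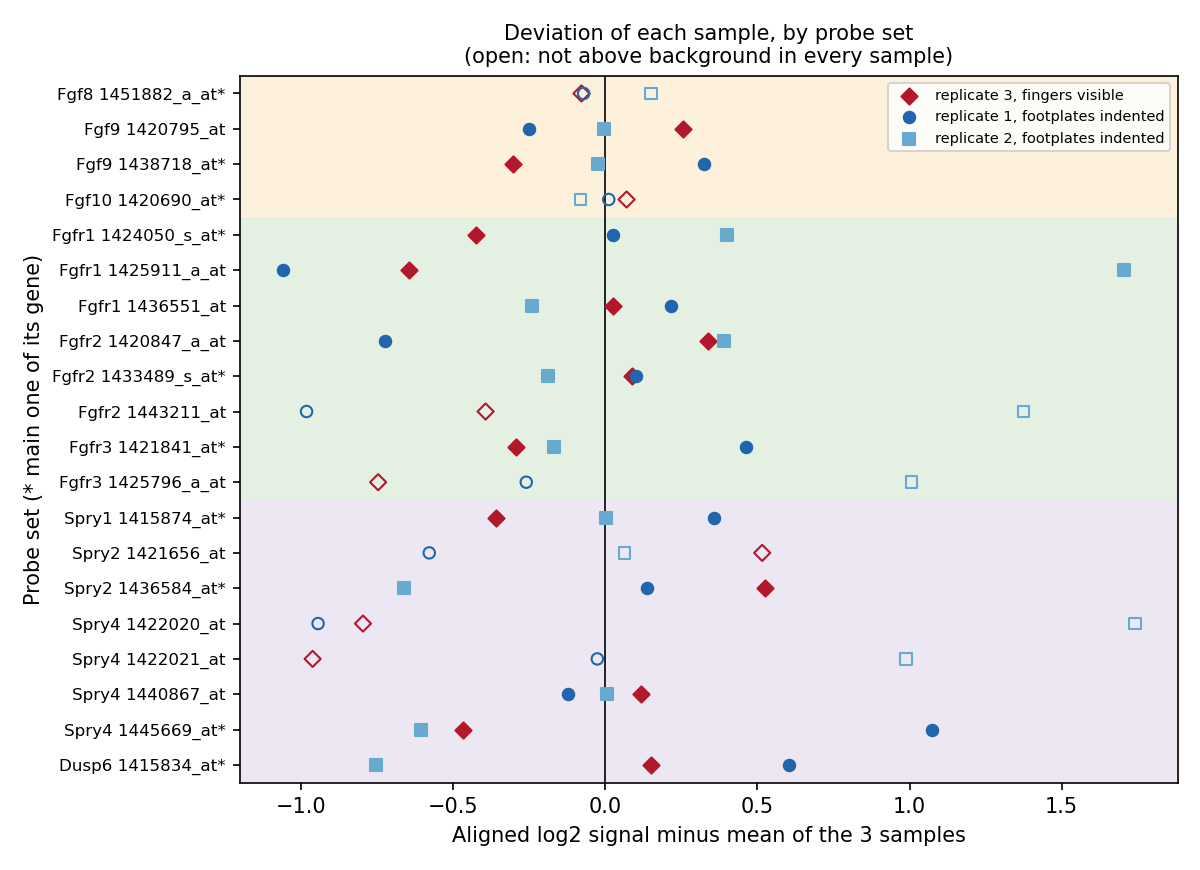
Aligned log2 signal of each sample minus the mean of the 3 samples, for the 20 probe sets, with replicate 3 as diamonds, replicate 1 as circles and replicate 2 as squares, open where the probe set is not above background in every sample. Replicate 2 lies far to the right on 1425911_a_at of Fgfr1 and 1443211_at of Fgfr2 but not on the main probe sets (asterisk) of these genes, and Dusp6 is low there.

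Over the 8 genes above background in 3 of 3 samples, the median SD was 0.408 on the log2 scale, with 3 of 8 below the median of 0.364 of all such probe sets. The median SD of the 8 over replicates 3 and 2, without replicate 1, was 0.228. No like median over all such probe sets was taken without replicate 1. A difference over 2-fold between some pair of samples was found for 3 of the 8, namely the inhibitors Spry2, Spry4 and Dusp6, beside 28.0% of all such probe sets, and aligned on the median of all probe sets, 5 of the 8 and 43.2% of all, with Fgfr3 and Spry1 added. Without replicate 3 it was 2 of the 8, Spry4 and Dusp6, beside 20.2% of all. Replicate 1 was the highest sample for 6 of the 8 genes and for 43.5% of all such probe sets, while after alignment on all probe sets it was 7 of 8, beside 66.4% of all. As deposited, the count was 5 beside 32.3%, and after quantile normalization 4 beside 40.9%. Without replicate 3, replicate 1 was the higher sample for 7 of 8, beside 58.4% of all. Of the epithelial markers 12 of 13 were also highest in replicate 1, with summed signals of 99624 in replicate 3 and 135430 and 117616 in replicates 1 and 2. The sums of the mesenchymal markers were 268659 in replicate 3 and 256088 and 262916 in replicates 1 and 2. The part of the epithelial markers in the order of these genes was not tested.

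Where above background in replicate 2, probe sets other than the main one often read higher there than in replicate 1. Of the 10 such probe sets of the receptors, Sprouty genes and Fgf9, 7 were above background in replicate 2, and 4 of the 7 were over 2-fold higher there than in replicate 1 (or than its background), a count of 2 after quantile normalization or alignment on all probe sets. Over all genes with several probe sets the share was 26.8%, against 4.96% of their main probe sets. Counting only probe sets above background in replicate 2 favours that sample in each of these shares. Of the 6 main probe sets of these genes, 0 were over 2-fold higher in replicate 2 and 1, that of Spry4, was over 2-fold higher in replicate 1. The median signal over all probe sets was also highest in replicate 2 (272 in replicate 3, 205 in replicate 1 and 334 in replicate 2), and its part in these values was not tested.

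**Figure D3:**
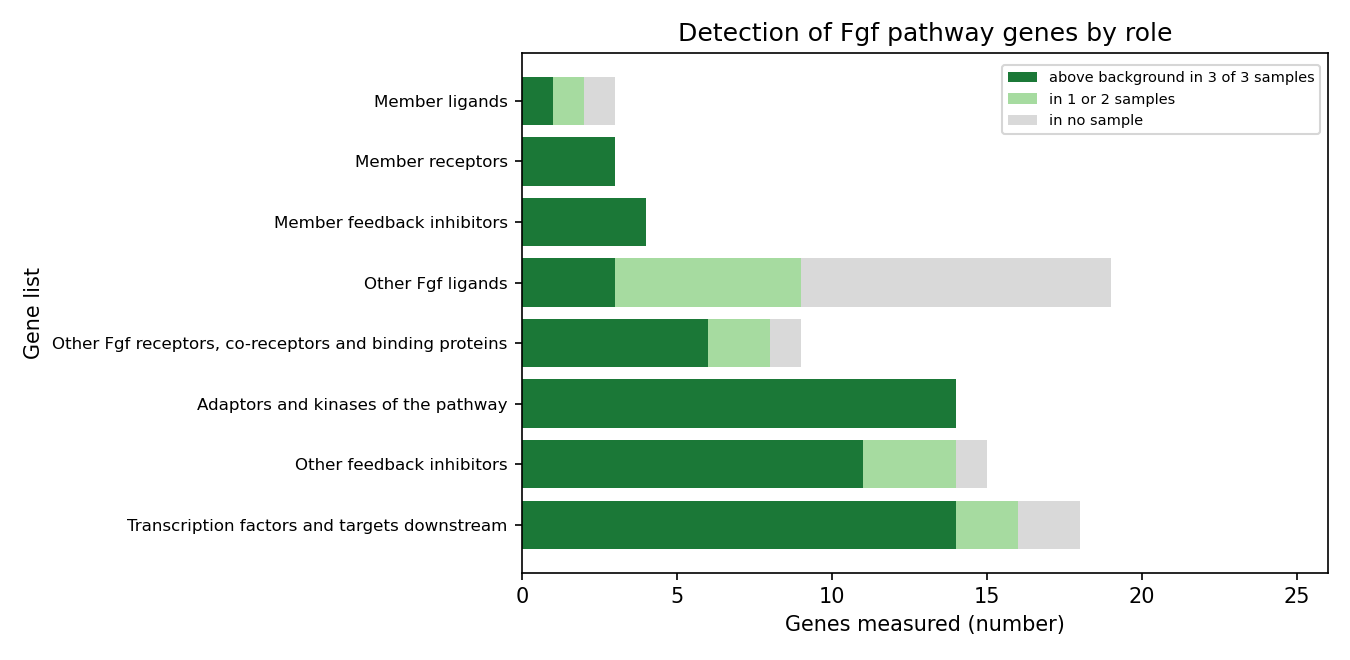
Number of genes above background in 3 of 3 samples (dark), in 1 or 2 samples (light) and in no sample (grey), for the 10 genes by role and for 5 lists of further pathway genes. Of the further ligands 3 of 19 reach 3 of 3 samples, beside 14 of 14 adaptors and kinases.

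Further genes of the pathway were counted in the same way. Of 75 further genes on the array, 48 passed in 3 of 3 samples, beside 60.5% of all genes, and without replicate 3 the count was 50 in replicates 1 and 2. Of 83 genes listed, 8 were not analysed here. Of the 19 further ligands 3 passed in 3 of 3 samples (also 3 without replicate 3), 6 in 1 or 2 and 10 in none. Among the 3, Fgf13 (2317 in replicate 3 and 1720 and 1223 in replicates 1 and 2) and Fgf11 (340 in replicate 3 and 445 and 335 in replicates 1 and 2) encode intracellular factors that bind sodium channels and are not known as secreted receptor ligands. The third, Fgf4, read 201 in replicate 3 and 145 and 255 in replicates 1 and 2, each close to background, and had 3 further probe sets that did not pass in 3 of 3 samples.

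Of the ligands that passed in some samples, the secreted factor Fgf7, which like Fgf10 acts on the epithelial form of Fgfr2, read 243 in replicate 3 and 459 and 147 in replicates 1 and 2 and missed in replicate 2. Fgf5 passed in replicate 3 alone, Fgf6 and Fgf12, the second of them of the intracellular family of Fgf11 and Fgf13, in replicate 1 alone, and Fgf1 and Fgf18 in replicate 2 alone. Over all probe sets with a gene symbol 1.83%, 4.39% and 1.90% passed in replicates 3, 1 and 2 alone. Fgf14, Fgf15 and Fgf16 were among the 10 that passed in no sample.

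Of 9 further receptors and partners 6 passed in 3 of 3 samples, and 7 without replicate 3. The membrane protein Flrt2, of a family that binds Fgf receptors, read 44893 in replicate 3 and 31064 and 27073 in replicates 1 and 2, and Flrt3 read 5676 in replicate 3 and 5721 and 6513 in replicates 1 and 2. Fgfrl1, a receptor without a kinase domain, read 4148 in replicate 3 and 3316 and 3307 in replicates 1 and 2, and the carrier Fgfbp1 read 705 in replicate 3 and 1249 and 854 in replicates 1 and 2. Fgfr4, the fourth receptor kinase, did not pass in replicate 3 (186) but did in replicates 1 and 2 (472 and 401), although another of its probe sets passed in 3 of 3 samples. Klb, a co-receptor of liver and fat, passed in replicate 1 alone, at 48.9 in replicate 3 and 628 and 63.9 in replicates 1 and 2, and Kl in no sample.

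Markers of liver had summed signals over 6 genes of 9136 in replicate 3 and 112475 and 52054 in replicates 1 and 2. Of these 6 genes 4 were above background in 3 of 3 samples. The sum was highest in replicate 1, as were Fgfr4 and Klb. Unlike the sum, Klb read much alike in replicates 3 and 2, below background in each. Skeletal muscle markers (5 of 12 above background in 3 of 3 samples) summed to 3781 in replicate 3 and 26580 and 8450 in replicates 1 and 2. Of the liver markers 0 were above background in no sample, and of the skeletal muscle markers 1 was, Myf5. The part of these cells in the values of Fgfr4, Klb or Fgf6 was not tested.

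All 14 of 14 adaptors and kinases measured passed in 3 of 3 samples, so the count was the same without replicate 3. Ptpn11, the phosphatase that relays the signal to Ras, read 25509 in replicate 3 and 23586 and 19504 in replicates 1 and 2, and the docking protein Gab1 read 17378 in replicate 3 and 21271 and 17235 in replicates 1 and 2. Rps6ka3, a kinase activated by Erk, read 23619 in replicate 3 and 13651 and 10767 in replicates 1 and 2, and the Ras activator Sos1 read 10408 in replicate 3 and 10639 and 10047 in replicates 1 and 2.

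Of 15 further feedback inhibitors 11 passed in 3 of 3 samples, and 12 without replicate 3. The Sprouty-related genes Spred1 and Spred2 varied little, at 14670 in replicate 3 and 14238 and 12394 in replicates 1 and 2 for Spred1, and at 8489 in replicate 3 and 9711 and 8469 in replicates 1 and 2 for Spred2. Il17rd, a membrane inhibitor of Fgf signalling also called Sef, read 9078 in replicate 3 and 11893 and 4679 in replicates 1 and 2, with an SD of 0.81 on the log2 scale. Its samples stood in the order of those of Dusp6, high in replicate 1 and low in replicate 2. Errfi1, an inhibitor of the Egf receptor, read 13722 in replicate 3 and 13349 and 8537 in replicates 1 and 2 and was also lowest in replicate 2, as were 42.0% of all probe sets above background in 3 of 3 samples. Spry3 and Spred3 passed in replicates 3 and 1, Dusp14 in replicates 1 and 2, and Dusp5 in no sample.

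Of 18 transcription factors and targets downstream 14 passed in 3 of 3 samples, as many as without replicate 3. Etv5, an ETS factor used as a readout of Fgf signalling, read 5032 in replicate 3 and 7269 and 5367 in replicates 1 and 2, whereas its relative Etv4 passed in no sample (159 in replicate 3 and 105 and 220.5 in replicates 1 and 2). The ETS factors Elk4 and Elk3 averaged 14106 ± 1223 and 9032 ± 1825, and the cyclin gene Ccnd1 10948 ± 950 (SD, n = 3). Egr2 passed in replicate 3 alone and Egr3 in replicate 1 alone, and Fosl1 in no sample.

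For the limb landmark, replicate 3 was set against replicates 1 and 2 in limma across the 29065 probe sets that passed background in 1 sample or more. Of these 0 (0%) passed a Benjamini-Hochberg adjusted p under 0.05, while 604, or 2.08%, had an unadjusted p under 0.05. Of the 17 probe sets of these genes in the fit, 0 passed either threshold, and the smallest unadjusted p from limma was 0.124, for 1422021_at of Spry4. The log2 difference of replicate 3 from the mean of replicates 1 and 2, with its SE from limma, was -0.45 ± 0.62 for Fgf9, -0.64 ± 0.62 for Fgfr1, 0.13 ± 0.61 for Fgfr2 and -0.44 ± 0.66 for Fgfr3 on their main probe sets. Among the inhibitors it was -0.54 ± 0.62 for Spry1, 0.79 ± 0.69 for Spry2, -0.70 ± 0.94 for Spry4 and 0.23 ± 0.84 for Dusp6. The sign turned for Fgfr2 (-0.013) and Dusp6 (-0.45) without replicate 2 and for Spry4 (0.14) without replicate 1. The difference for Fgfr3 was -0.12 without replicate 1 and that for Spry2 was 0.39 without replicate 2. With 1 sample against 2 the limma fit leaves 1 residual degree of freedom. It did not call even Xist, whose log2 difference was 11.0 ± 1.69, or Eif2s3y, at -6.71 ± 0.63. The lack of calls therefore does not show whether these genes differed between landmarks. The landmark cannot be told apart from the doubtful sex label of replicate 3.

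**Figure D4:**
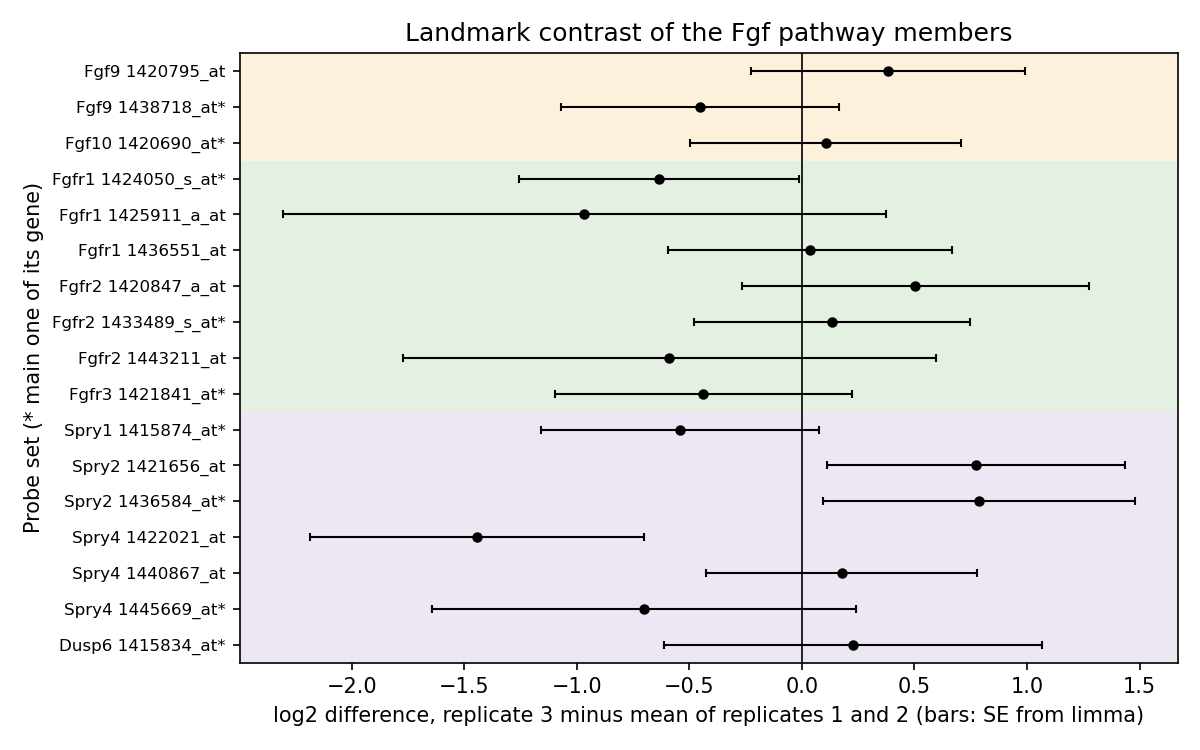
Difference of replicate 3 (fingers visible) from the mean of replicates 1 and 2 (footplates indented) on the aligned log2 scale for the 17 probe sets fitted, with bars of 1 SE from limma. The values lie on both sides of 0, from -1.44 for 1422021_at of Spry4 to 0.79 for the main probe set of Spry2, and 0 of 17 passed the adjusted threshold.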

How the data were processed

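Arrays of 3 genital tubercles were analysed. The deposited values are linear intensities, 1 per probe set and sample, made by the authors with GCOS, the scanner software, per the submitters' processing notes. The sources used here do not give its version or settings. Each deposited column had a mean of 1500.0 once 2% of its values were trimmed at either end, so a global scaling had been applied. Of 45101 probe sets, 64 controls were left out. A platform annotation gave 1 gene symbol to 34945 of the rest, several to 932 and none to 9160, and no symbol changed when updated through Entrez identifiers to RefSeq (GRCm38.p6). Signals below 1 were set to 1, log2 transformed and aligned. Before alignment the medians differed by 0.227 on the log2 scale over the probe sets that passed background in every sample and by 0.704 over all. Where 1 sample of a pair was not above background, the fold is a lower bound against its background or its own signal, whichever is higher. The landmark contrast used limma 3.58.1 in R 4.3.3 (lmFit, eBayes, two-sided, Benjamini-Hochberg adjustment) and was tested on simulated data.

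The members, gene lists and tests were chosen with earlier results of these data known. The genes named are every member with all its probe sets and, of each pathway list, up to 4 genes of highest mean signal among those above background in 3 of 3 samples, each gene above it in 1 or 2, and up to 3 above it in none, in alphabetical order. Nothing in the labels says that samples came from separate litters, so SDs measure the spread between these samples, which may be technical in part. The SEs and p-values from limma rest on the difference between replicates 1 and 2 and on a spread pooled over the probe sets fitted. At most 10 probe sets held equal values in any pair of samples.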

Additional observations from a re-analysis of the deposited data

How the results depend on the processing

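Counting a gene when every one of its probe sets, and not the main one, was above background in 3 of 3 samples gave 4 of the 10 genes, with 1 ligand, 1 receptor and 2 feedback inhibitors. No share of all genes was counted under this rule. On the same rule 29 further pathway genes passed, among them 0 ligands, 8 adaptors and kinases and 6 feedback inhibitors. With the 90th percentile as background 2 member ligands passed, and with the 99th 1 further ligand. Leaving out 1 sample gave 1 to 2 member ligands, the higher value without replicate 2, where Fgf10 passes. The landmark contrast called 86 probe sets when samples were aligned on all probe sets, 1 when the fit was limited to those that passed in 3 of 3 samples and 3 with signals below background set to it, and none of these was a probe set of the 10 genes. Without replicate 1 or 2, as values with no test, the log2 difference of replicate 3 ran from -0.013 to 0.28 for Fgfr2, from -1.54 to 0.14 for Spry4 and from -0.45 to 0.91 for Dusp6. The causes were not tested. The median SD ran from 0.228 to 0.382 with a sample left out. Other scalings of the sample order, and that order without replicate 3, were added after seeing the data. Of 99 alternative values that answer a comparison, 85 stayed within 1.5 times. No paired analysis was possible because the samples form 1 group. Signal over background limits Fgf10, each Spry2 probe set and some of the further Fgfr and Spry4 probe sets, which lay near background in 1 sample or more.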
